A study of Mus musculus with 10 samples.

Results

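Trem2 and the genes that carry its signal were followed through 10 RNA-seq libraries of microglia, the resident macrophages of the brain. The 6 genes were chosen by name as members of 1 pathway, with earlier results of these data known: the receptor gene Trem2, the adaptor gene Tyrobp, and the downstream genes Syk, Plcg2, Inpp5d and Vav1. All 6 were present in the table of 24453 gene symbols, and all 6 passed the filter on low values, at least 10 RPM in at least 2 libraries. A further 150 genes of the same pathway, sorted by role, were read from the same fit.

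The libraries were made from cells purified with magnetic beads from the brains of untreated C57bl6 mice. Of the 4 groups, the aged group held 3 libraries from mice aged 15 months and the young group 3 libraries from mice aged 10 weeks. The other groups were 2 libraries labelled Rab7 deltaMG and 2 labelled Rab7 Control, both from mice aged 3 months. The series calls the deltaMG mice Rab7 null mutants. The RAB7 protein is a GTPase that drives the maturation of endosomes into lysosomes. The sources used here do not name the promoter or cell type that drives the deletion, the genotype of the controls or the number of animals behind a library.

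TREM2 is a surface receptor of microglia and other macrophages that binds lipids, lipoproteins and cell debris. It has almost no signalling tail of its own and works through TYROBP, also called DAP12, a membrane adaptor whose tail carries an ITAM, a motif with paired tyrosines. Src family kinases phosphorylate the ITAM, the kinase SYK docks on it, and SYK activates phospholipase C gamma 2, VAV exchange factors and PI3 kinase, while the phosphatase SHIP1 removes the lipid that PI3 kinase makes. In mouse models of amyloid and of myelin damage, microglia that lack Trem2 do not take on the full disease-associated state.

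Values are RPM, reads scaled to a common library total, with 6098272 to 9907509 reads behind the scaling of each library and 1284409 to 1855056 of them in the listed genes. Markers of the labelled cell type were present, with 10 of 10 microglial markers above 0 in every library and a summed level of 3526 to 6010 RPM. Their presence does not measure the purity of a library. T and NK cell, B cell and endothelial markers summed to at most 9.66 RPM in any library, and Cd3g and Cldn5 were at 0 throughout. Astrocyte markers summed to 36.0 to 47.2 RPM in young and 25.9 to 38.1 RPM in aged libraries. They summed to 48.9 to 55.1 RPM in labelled control and 33.9 to 40.6 RPM in labelled deltaMG libraries. Oligodendrocyte markers summed to 10.6 to 20.8 RPM. Border macrophage markers summed to 26.6 to 84.3 RPM, with 31.9 to 84.3 RPM in aged and 26.6 to 29.8 RPM in young libraries. Neuron markers summed to 2.16 to 5.08 RPM in young, 7.75 to 15.8 RPM in aged, 0.892 to 1.83 RPM in labelled control and 5.38 to 8.97 RPM in labelled deltaMG libraries. The highest sums of another cell type came from neutrophil markers (13 of 13 in the table, none at 0 in any library) and monocyte markers (9 of 9, none at 0). Neutrophil markers summed to 592 to 1522 RPM in young, 1063 to 4548 RPM in aged, 490 to 732 RPM in labelled control and 1271 to 1949 RPM in labelled deltaMG libraries. Monocyte markers summed to 89.5 to 231 RPM, 211 to 897 RPM, 77.7 to 118 RPM and 203 to 269 RPM in the same order. The highest sums of both lists were in aged replicate 3. In that library the neutrophil markers, at 4548 RPM, exceeded the microglial markers, at 3526 RPM. Neutrophils and monocytes also express Tyrobp, Syk, Plcg2, Inpp5d and Vav1.

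Rab7 itself was at 64.2 and 67.5 RPM in labelled control and at 72.2 and 79.4 RPM in labelled deltaMG libraries. It was at 62.2, 72.6 and 60.0 RPM in young and at 67.4, 60.8 and 103 RPM in aged libraries. Between labelled deltaMG and control the log2 difference was 0.20 with a limma adjusted p of 0.668, so the targeted gene was not measurably lower and does not check the labels. With a neutrophil score, the mean log2 level of 12 neutrophil markers, as covariate the sign turned (-0.22, limma adjusted p = 0.634). Every direction for these 2 groups rests on the labels. In the other comparison Xist was at 1715 to 1771 RPM in young and at most 0.940 RPM in aged libraries, so age and sex cannot be told apart. In what follows, "with age" names this comparison of aged with young libraries, and not an effect of age apart from sex. In labelled control and deltaMG libraries both Xist and Y-linked transcripts were present, so each held RNA of male and female mice. Xist was at 1410 and 924 RPM in labelled control and at 1171 and 1562 RPM in labelled deltaMG libraries. Y-linked transcripts summed to 19.3 and 25.8 RPM and to 20.3 and 9.11 RPM in the same order. The mix of sexes thus varied between libraries, and its effect on this comparison was not tested.

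The receptor and its adaptor were lower in the libraries labelled Rab7 deltaMG, and none of the 4 downstream genes passed the test there. A gene was called where its Benjamini-Hochberg adjusted p from limma, over 4151 tested genes, was under 0.05. Tyrobp fell 2.00-fold and Trem2 fell 1.60-fold. In aged libraries neither of these moved past the test, and the only one of the 6 genes that did was Inpp5d, which fell 1.38-fold. Of all tested genes, 3.78% were called between labelled deltaMG and labelled control and 6.14% with age. None of the calls among the 6 genes held in every setting tried. All fold changes were taken from log2(RPM + 1), where the added 1 shrinks the change of a low gene. The plot of the 6 genes by library shows the values behind these statements.

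**Figure D1:**
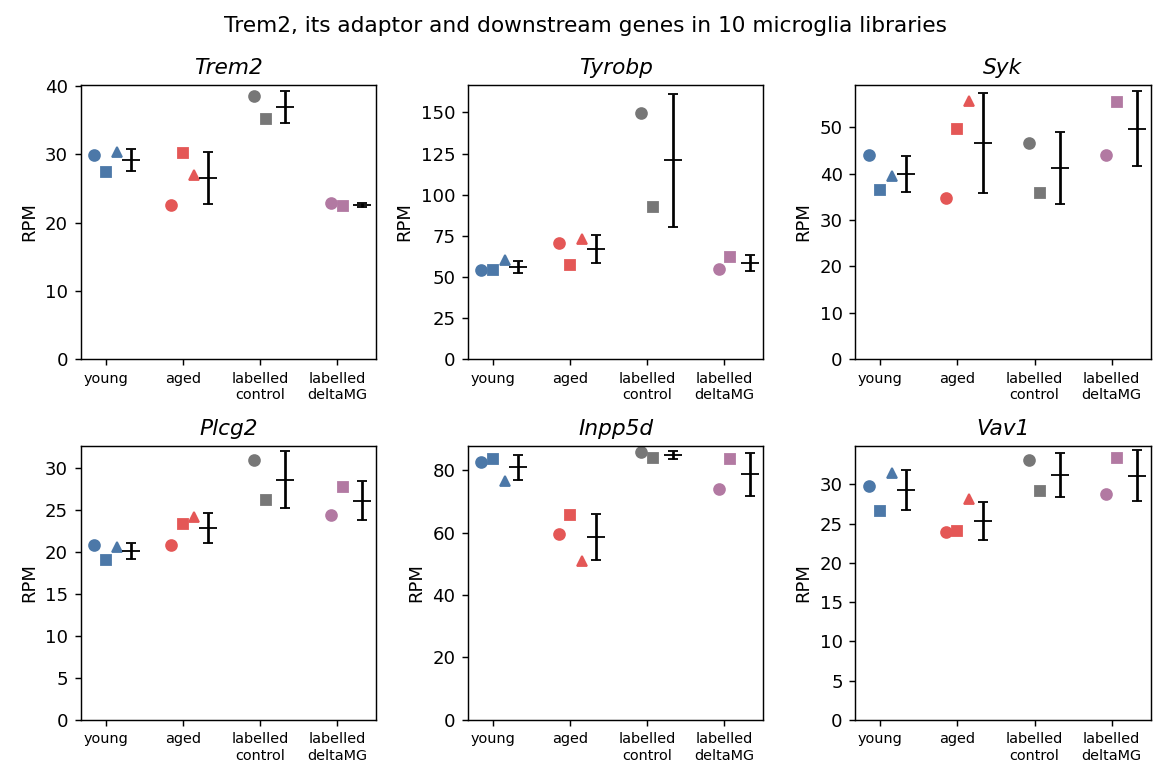
Level of each of the 6 genes in RPM (vertical axes, from 0) in each library, by group; circles, squares and triangles are replicates 1, 2 and 3, and the black bar gives the mean and SD of the group. The 2 libraries labelled control are the highest of all 10 for Trem2 and Tyrobp, and the 3 aged libraries are the lowest for Inpp5d.

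Trem2 (ENSMUSG00000023992.14; chromosome 17, 48346401 to 48354147, plus strand, GRCm38) was at 38.6 and 35.3 RPM in labelled control and at 22.8 and 22.4 RPM in labelled deltaMG libraries. In young libraries it was at 29.9, 27.4 and 30.4 RPM, and in aged libraries at 22.6, 30.2 and 26.9 RPM. Both libraries labelled control stood above every other library, and the lowest aged library lay between the 2 labelled deltaMG. Ordered by group mean, Trem2 was lowest in labelled deltaMG (22.6 RPM ± 0.280, SD, n = 2), then aged (26.6 RPM ± 3.82, SD, n = 3), young (29.2 RPM ± 1.61, SD, n = 3) and labelled control (36.9 RPM ± 2.39, SD, n = 2). Neighbouring groups overlapped except young and labelled control.

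The log2 difference of Trem2 between the libraries labelled deltaMG and control was -0.68 (SE 0.17, limma adjusted p = 0.042). Between aged and young libraries it was -0.14 (SE 0.14, limma adjusted p = 0.623), and the 95% interval ran from -0.44 to 0.16. The call in the libraries labelled deltaMG was near the threshold and was lost when single libraries were left out, with limma adjusted p of 0.298 without control replicate 1, 0.134 without control replicate 2, 0.187 and 0.147 without deltaMG replicates 1 and 2, and 0.0623 and 0.0546 without young replicates 1 and 2. The log2 difference stayed between -0.75 and -0.62 in all 10 of these fits. The level rested on about 144 to 299 reads per library. In the same comparison 12 of 12 tested neutrophil markers had a positive log2 difference (median 1.62, 2 called), and the 10 microglial markers had a median of -0.11 (1 called higher). With the neutrophil score as covariate the log2 difference of Trem2 was -0.62 (limma adjusted p = 0.148). In bulk RNA, fewer cells of a type and less RNA per cell cannot be told apart.

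Tyrobp (ENSMUSG00000030579.10; chromosome 7, 30413760 to 30417585, plus strand, GRCm38) was at 149 and 92.4 RPM in labelled control and at 54.8 and 62.1 RPM in labelled deltaMG libraries. It was at 54.1, 54.1 and 60.2 RPM in young and at 70.3, 57.0 and 73.3 RPM in aged libraries. The libraries labelled control were again above all 8 others, and they were far apart from each other. Group means were 56.1 RPM ± 3.51 (SD, n = 3) in young, 58.4 RPM ± 5.11 (SD, n = 2) in labelled deltaMG, 66.9 RPM ± 8.66 (SD, n = 3) in aged and 121 RPM ± 40.4 (SD, n = 2) in labelled control libraries. Only the step from aged to labelled control was without overlap between neighbours in that order.

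The log2 difference of Tyrobp between the libraries labelled deltaMG and control was -0.998 (SE 0.20, limma adjusted p = 0.0107). It was lost without control replicate 1, the library at 149 RPM, where the log2 difference was -0.65 (limma adjusted p = 0.216), and without deltaMG replicate 1, where it was -0.91 (limma adjusted p = 0.134). With the neutrophil score as covariate the log2 difference was -1.18 (limma adjusted p = 0.00172). The score did not overlap between these groups, at 5.23 and 4.61 in labelled control and 6.78 and 6.19 in labelled deltaMG libraries. That fit therefore cannot fully separate the label from the score, and this holds for every use of the score in this comparison. Between aged and young libraries the log2 difference was 0.24 (SE 0.16, limma adjusted p = 0.437).

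The 2 comparisons share no library, and their difference was tested in the same fit. For Tyrobp the log2 difference of labelled deltaMG minus control was below that of aged minus young by 1.24, at -1.24 (SE 0.26, limma adjusted p = 0.0112). This call was lost without control replicate 1 (log2 scale, -0.90) and without deltaMG replicate 1 (-1.15). Age and sex cannot be told apart in this difference either, as it contains the comparison of aged with young libraries. For Trem2 that difference was -0.54 with a limma adjusted p of 0.197, and none of the 4 downstream genes passed. Across all genes 4.79% passed this test, 2.12% higher and 2.67% lower, and 18.3% had an unadjusted p under 0.05. Tyrobp RPM was 1.81 to 1.98 times Trem2 RPM in young libraries, 1.89 to 3.12 times in aged, 2.62 and 3.87 times in labelled control and 2.40 and 2.77 times in labelled deltaMG libraries. These ratios are not scaled by gene length. Scaled by the length of the principal GENCODE transcript, the mean level over the 10 libraries was 129 RPM per kb for Tyrobp and 26.3 RPM per kb for Trem2, and it was 5.55 to 15.1 RPM per kb for the 4 downstream genes.

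Inpp5d (ENSMUSG00000026288.14; chromosome 1, 87620312 to 87720507, plus strand, GRCm38) encodes SHIP1, the inositol phosphatase that restrains signalling through PI3 kinase. It was at 82.7, 83.6 and 76.4 RPM in young and at 59.5, 65.6 and 50.9 RPM in aged libraries. The libraries labelled control had 85.7 and 84.0 RPM and those labelled deltaMG 73.8 and 83.5 RPM. All 3 aged libraries were below the 7 others. The aged mean was 58.7 RPM ± 7.38 (SD, n = 3), the labelled deltaMG mean 78.6 RPM ± 6.82 (SD, n = 2), the young mean 80.9 RPM ± 3.92 (SD, n = 3) and the labelled control mean 84.9 RPM ± 1.198 (SD, n = 2), and only labelled deltaMG and young overlapped as neighbours.

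The log2 difference of Inpp5d between aged and young libraries was -0.46 (SE 0.12, limma adjusted p = 0.0424). It was lost without young replicate 1 (limma adjusted p = 0.146), 2 (0.116) or 3 (0.0724), without aged replicate 1 (0.0858) or 3 (0.132) and without labelled control replicate 1 (0.0667) or 2 (0.0675), at log2 differences of -0.55 to -0.37 over all 10 fits. With the neutrophil score as covariate the log2 difference was -0.36 (limma adjusted p = 0.194). The neutrophil score was highest and Inpp5d lowest in aged replicate 3. All 10 microglial markers had a negative log2 difference with age (median -0.55, 6 called lower), all 12 tested neutrophil markers a positive one (median 1.04, 2 called higher), and 5 of 8 tested monocyte markers were called higher. In the libraries labelled deltaMG the log2 difference was -0.11 with a limma adjusted p of 0.767, although the ranges did not overlap.

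Syk (ENSMUSG00000021457.14; chromosome 13, 52583173 to 52648792, plus strand, GRCm38), the kinase that docks on the phosphorylated adaptor, did not pass in either comparison. It was at 44.0, 36.4 and 39.4 RPM in young, 34.8, 49.6 and 55.6 RPM in aged, 46.7 and 35.8 RPM in labelled control and 44.0 and 55.5 RPM in labelled deltaMG libraries. The young mean was 39.9 RPM ± 3.81 (SD, n = 3), the labelled control mean 41.2 RPM ± 7.67 (SD, n = 2), the aged mean 46.7 RPM ± 10.7 (SD, n = 3) and the labelled deltaMG mean 49.8 RPM ± 8.19 (SD, n = 2). The groups overlapped at every step of that order, and the aged libraries alone spanned the whole range of the gene. The log2 difference was 0.20 for age (95% interval -0.18 to 0.57, limma adjusted p = 0.581) and 0.27 for the libraries labelled deltaMG (-0.19 to 0.73, limma adjusted p = 0.564).

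Plcg2 (ENSMUSG00000034330.10; chromosome 8, 117498291 to 117635142, plus strand, GRCm38) encodes phospholipase C gamma 2, which opens the calcium and diacylglycerol branch. It was at 20.8, 19.02 and 20.6 RPM in young, 20.8, 23.4 and 24.3 RPM in aged, 31.1 and 26.2 RPM in labelled control and 24.5 and 27.8 RPM in labelled deltaMG libraries. Means were 20.1 RPM ± 0.971 (SD, n = 3) in young, 22.8 RPM ± 1.78 (SD, n = 3) in aged, 26.1 RPM ± 2.32 (SD, n = 2) in labelled deltaMG and 28.6 RPM ± 3.41 (SD, n = 2) in labelled control libraries. The lowest aged library, at 20.84 RPM, lay just above the highest young one, at 20.80 RPM, and both groups were below the libraries labelled control and deltaMG, which overlapped. The log2 difference was 0.17 for age (95% interval -0.13 to 0.47, limma adjusted p = 0.537) and -0.13 for the libraries labelled deltaMG (-0.49 to 0.24, limma adjusted p = 0.767).

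Vav1 (ENSMUSG00000034116.17; chromosome 17, 57279100 to 57328031, plus strand, GRCm38), an exchange factor that activates Rac GTPases in blood cells and microglia, varied least of the 6 genes, with its highest library at 1.39 times its lowest. It was at 29.8, 26.6 and 31.5 RPM in young, 23.97, 24.02 and 28.2 RPM in aged, 33.1 and 29.2 RPM in labelled control and 28.8 and 33.4 RPM in labelled deltaMG libraries. Means were 25.4 RPM ± 2.42 (SD, n = 3) in aged, 29.3 RPM ± 2.52 (SD, n = 3) in young, 31.1 RPM ± 3.27 (SD, n = 2) in labelled deltaMG and 31.2 RPM ± 2.79 (SD, n = 2) in labelled control libraries, and neighbours overlapped at every step. The log2 difference was -0.20 for age (95% interval -0.50 to 0.10, limma adjusted p = 0.45) and -0.0037 for the libraries labelled deltaMG (-0.37 to 0.36, limma adjusted p = 0.997), and the sign of the latter changed with the scaling.

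**Figure D2:**
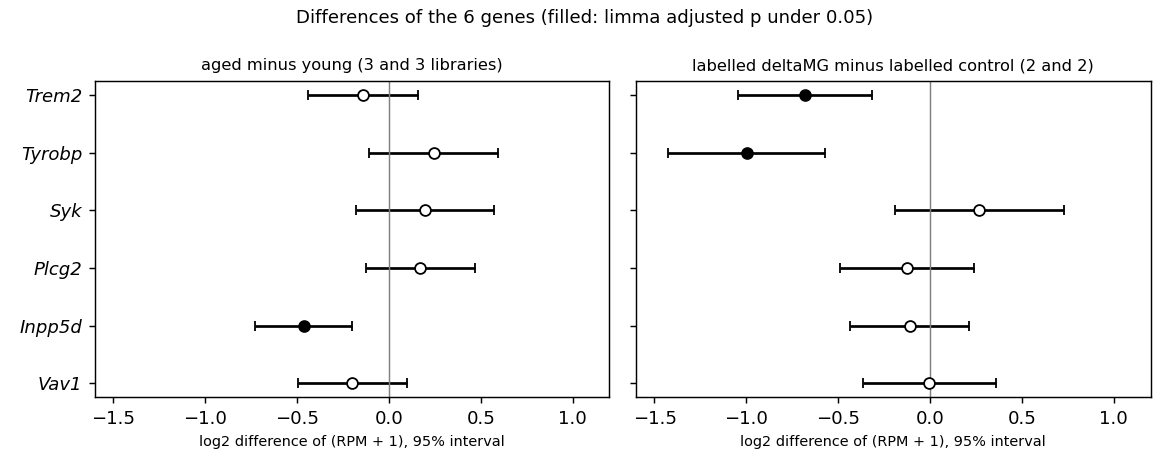
Log2 difference of RPM + 1 with its 95% interval (horizontal axes) for the 6 genes (rows), in aged minus young on the left and in labelled deltaMG minus labelled control on the right; filled points passed a limma adjusted p under 0.05. Inpp5d is the filled point on the left at -0.46, and Trem2 and Tyrobp are the filled points on the right at -0.68 and -0.998.

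Over the 6 genes, 1 was called in the ageing comparison, where 6.14% of 4151 tested genes were called, and 2 between labelled deltaMG and labelled control libraries, where 3.78% were. An unadjusted limma p under 0.05 was met by the same counts of the 6 genes, 1 and 2, against 21.5% and 18.8% of all genes. The 1 call with age and both calls in the libraries labelled deltaMG were falls, against 2.99% and 2.58% of all genes called lower and 3.16% and 1.2% called higher. Ranges did not overlap for 2 of the 6 genes in the ageing comparison (Plcg2 and Inpp5d), against 23.9% of all genes, and for 3 in the other (Trem2, Tyrobp and Inpp5d), against 51.8%. The median log2 difference of the 6 genes was 0.015 for age, beside -0.048 over all genes, and -0.12 for the libraries labelled deltaMG, beside -0.016. Of all genes, 131 were higher and 124 lower with age, but 221 and 107 with median-of-ratios scaling and 217 and 113 with equal totals.

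The stretch of 250 bases before the start of each gene is shown for Trem2 and Inpp5d, which were called, and for Vav1, which shares a motif with Inpp5d. Of the 6 genes, 5 had an entry among the RefSeq promoters of build GRCm38.p6, and Tyrobp did not. GAGGAA is the purine-rich core that PU.1, the ETS transcription factor of macrophages and microglia, is known to bind, and GAGGAAGT is a longer form that contains it. Both were searched on both strands, and the capitals mark the matches, which read TTCCTC where the match is on the other strand.
Trem2, chr17:48346151-48346400, plus strand: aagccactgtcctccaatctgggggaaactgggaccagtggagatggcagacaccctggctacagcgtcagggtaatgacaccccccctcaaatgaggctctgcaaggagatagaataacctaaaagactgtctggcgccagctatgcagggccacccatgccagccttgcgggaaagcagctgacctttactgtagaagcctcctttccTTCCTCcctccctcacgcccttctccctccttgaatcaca
Inpp5d, chr1:87620062-87620311, plus strand: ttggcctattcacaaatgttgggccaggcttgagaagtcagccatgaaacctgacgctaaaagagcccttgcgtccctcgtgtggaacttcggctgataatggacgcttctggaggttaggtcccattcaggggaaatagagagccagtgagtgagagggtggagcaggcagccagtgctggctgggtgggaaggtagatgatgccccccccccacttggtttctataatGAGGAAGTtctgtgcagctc
Vav1, chr17:57278850-57279099, plus strand: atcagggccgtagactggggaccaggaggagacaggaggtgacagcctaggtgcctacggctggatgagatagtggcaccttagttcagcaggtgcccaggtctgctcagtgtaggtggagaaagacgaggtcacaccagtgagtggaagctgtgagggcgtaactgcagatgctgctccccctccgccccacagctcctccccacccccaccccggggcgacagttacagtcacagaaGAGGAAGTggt
The longer form began 20 bases before the start of Inpp5d and 11 bases before that of Vav1, and 2.44% of 32851 promoter windows of the same length held it. The shorter form was in 23.25% of those windows, in Trem2 on the opposite strand 40 bases before the start and in 1 of the 2 windows of Syk, but not in the window of Plcg2. These are matches of letters and no measure of binding.

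Genes whose levels ran most like each of the 6 over the 10 libraries were ranked by Pearson correlation of log2(RPM + 1), as a description of libraries that share groups and depth. For Trem2 these were Gm10677 (r = 0.92), Pkp4 (0.90), Snx24 (0.90), Apbb2 (0.88) and Sirt2 (0.87). For Tyrobp they were the cathepsin gene Ctss (0.97), Azin1 (0.96), Slamf9 (0.96), Stx7 (0.96) and Usp12 (0.95). Trem2 and Tyrobp had no gene in common among these, but lists this short do not measure how alike both genes ran. The closest to Inpp5d were Jam2 (0.98), Tanc2 (0.97) and Zfp532 (0.97), and the closest to Syk were Creb1 (0.90), Ppp6r1 (0.87) and Sptlc2 (0.86). Plcg2 ran with Rab1a (0.95), the inhibitory Fc receptor gene Fcgr2b (0.95) and Tmem50b (0.94), and Vav1 with the integrin gene Itgb1 (0.97), Calm2 (0.96) and Evi5 (0.93).

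Around the 6 genes, the pathway list had 150 genes in the table and 97 that passed the filter. With age 9 were called higher and 6 lower, beside 3.16% and 2.99% of all tested genes. In the comparison of labelled deltaMG with labelled control 1 was called higher and 1 lower, beside 1.2% and 2.58%. With the neutrophil score as covariate 4 were called higher and 1 lower with age, and the counts between labelled deltaMG and control were 0 higher and 2 lower. The median log2 difference of the 97 genes was -0.023 for age and 0.028 for the libraries labelled deltaMG. Of the 15 calls with age, 4 were receptors listed as partners of the adaptors, 4 inhibitory genes, 2 listed as ligands and 1 an adaptor. The other 4 were enzymes and scaffolds, as the plot of the pathway list by role shows. No difference between roles was tested. The calls of Siglech, Clec7a, Apoe, Lilrb4a and Pirb held with that covariate and 10 were lost, and in the same comparison 2 of 12 tested neutrophil and 5 of 8 tested monocyte markers were called higher.

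**Figure D3:**
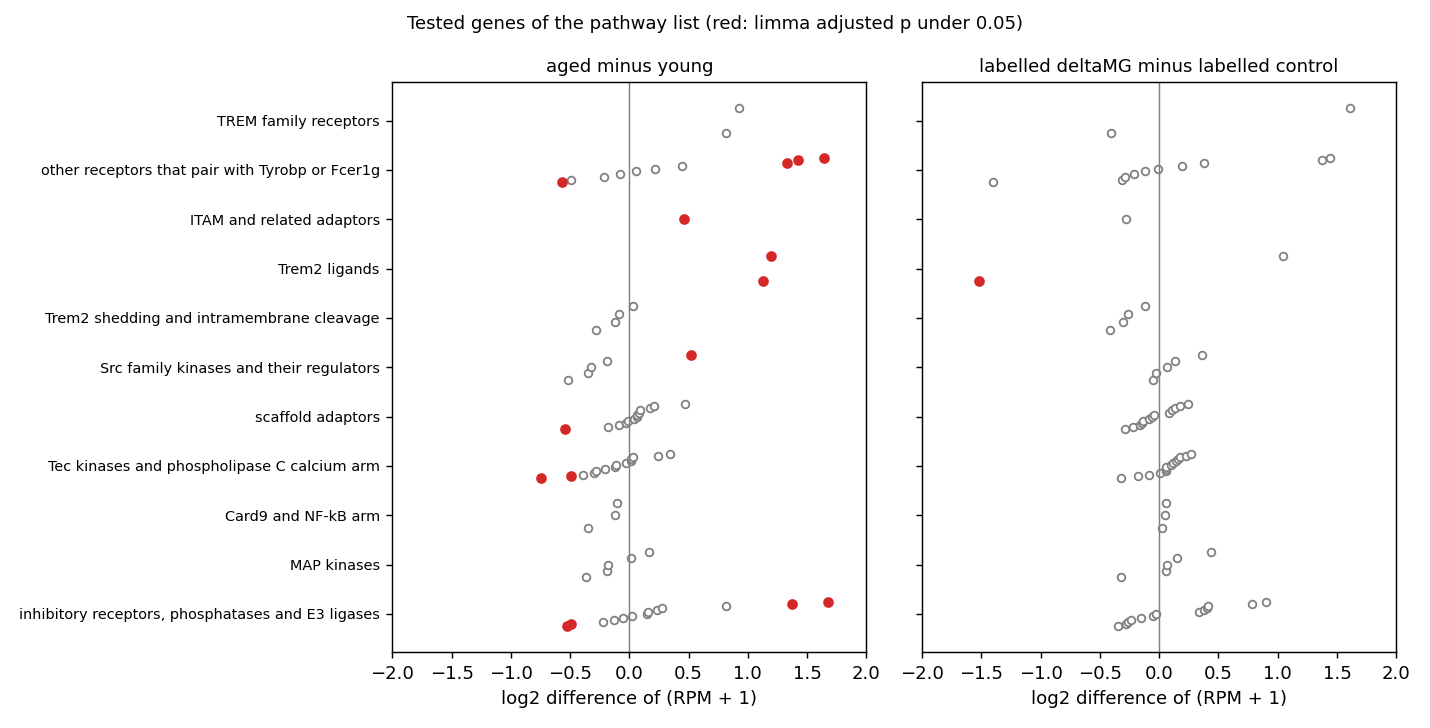
Log2 difference of RPM + 1 (horizontal axes) of tested genes in 11 roles of the pathway list, each a circle, by role (rows), for aged minus young on the left and labelled deltaMG minus labelled control on the right; red marks a limma adjusted p under 0.05. The left panel holds 15 red circles and the right panel 1.

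Among genes listed as ligands of TREM2, Apoe and Lpl were tested. That list was drawn up by name, and it was not checked that the product of Lpl binds the receptor. Apoe, a lipid carrier that binds the receptor, was at 29.9, 40.5 and 42.0 RPM in young, 79.9, 77.4 and 103 RPM in aged, 193 and 144 RPM in labelled control and 62.7 and 52.7 RPM in labelled deltaMG libraries. It was high in the libraries labelled control, as Tyrobp was, and unlike Tyrobp it did not overlap between young and aged. The log2 difference was 1.19 for age (limma adjusted p = 0.000799) and -1.52 for the libraries labelled deltaMG (limma adjusted p = 0.00077). Both calls and that of their difference (-2.71, limma adjusted p = 2.26e-05) held without each library in turn. Astrocyte marker sums were also higher in labelled control (48.9 to 55.1 RPM) than in labelled deltaMG libraries (33.9 to 40.6 RPM). They were 36.0 to 47.2 RPM in young and 25.9 to 38.1 RPM in aged libraries. Any part of astrocyte RNA in the Apoe level was not tested. Lpl, a lipoprotein lipase, rose 2.19-fold with age (limma adjusted p = 0.0425, or 0.147 with the neutrophil score). Its log2 difference in the libraries labelled deltaMG was 1.05 (limma adjusted p = 0.135).

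The second ITAM adaptor of microglia, Fcer1g, was at 90.0, 84.3 and 84.6 RPM in young and at 116, 103 and 141 RPM in aged libraries. It rose 1.38-fold with age (limma adjusted p = 0.0496), without overlap, but its call held in 1 of 10 fits that left out a library and was lost with the neutrophil score (0.32 on the log2 scale, limma adjusted p = 0.251). In the libraries labelled deltaMG its log2 difference was -0.28 (limma adjusted p = 0.379), from 144 and 132 RPM in labelled control to 105 and 122 RPM. Trem1 and Treml2, the TREM family receptors that were tested, did not pass. Trem1, a receptor of neutrophils and monocytes that also uses Tyrobp, was at 3.71 and 3.24 RPM in labelled control and at 16.5 and 9.69 RPM in labelled deltaMG libraries (limma adjusted p = 0.0519). In the same libraries 12 of 12 tested neutrophil markers had a positive log2 difference, with a median of 1.62.

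Of 10 tested receptors listed as partners of Tyrobp or Fcer1g, 3 rose and 1 fell with age, where 6.14% of all tested genes were called. The list was drawn up by name, and it was not checked that each receptor, Clec7a and Clec4a2 among them, pairs with either adaptor. Siglech, a lectin of microglia that signals through Tyrobp and is 1 of the 10 microglial markers, fell from 150, 126 and 128 RPM in young to 90.7, 87.1 and 93.3 RPM in aged libraries, 1.48-fold with a limma adjusted p of 0.0104. Clec7a, the beta-glucan receptor dectin-1, rose 3.11-fold (limma adjusted p = 0.00704), from 6.62, 6.56 and 2.73 RPM to 23.3, 10.2 and 22.9 RPM. With the neutrophil score as covariate the log2 difference of Clec7a went from 1.64 to 1.11 (limma adjusted p = 0.012). Cd300ld and Clec4e, receptors that are also found on other myeloid cells, rose 2.51-fold and 2.68-fold (limma adjusted p = 0.0334 and 0.0389), and with the neutrophil score as covariate both calls were lost (0.193 and 0.192). Of these 10 receptors, none was called in the libraries labelled deltaMG, where 3 had an unadjusted limma p under 0.05, as 18.8% of all tested genes did. Clec7a was at 31.1 and 26.2 RPM in labelled control and 10.0 and 10.3 RPM in labelled deltaMG libraries (log2 difference -1.41, limma adjusted p = 0.0517), and its difference between the comparisons was called (-3.04, limma adjusted p = 0.00193).

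**Figure D4:**
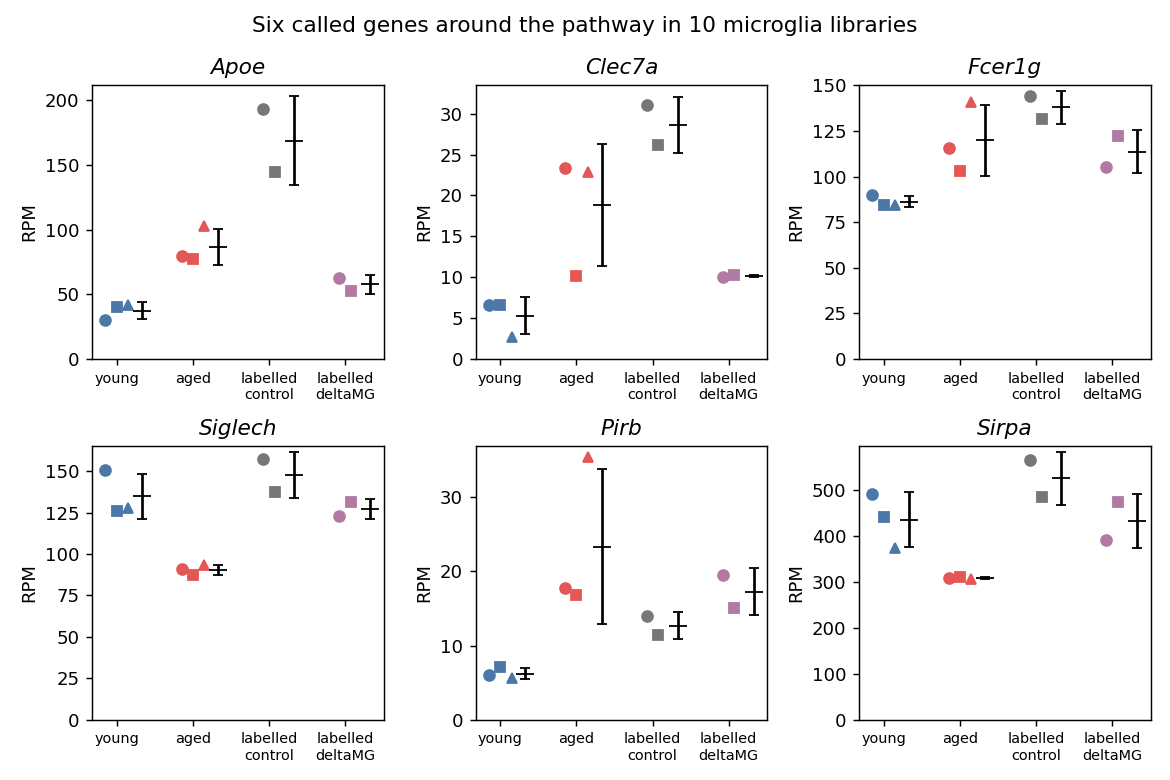
Level in RPM (vertical axes, from 0) of 6 genes of the pathway list that were called in at least 1 comparison, in each library by group; symbols are replicates 1, 2 and 3, and the black bar gives the group mean and SD. Apoe and Clec7a are low in young, higher in aged and highest in labelled control libraries, and Siglech and Sirpa are lowest in the 3 aged libraries.

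Of 13 tested inhibitory receptors, phosphatases and E3 ligases, 2 rose and 2 fell with age, beside 3.16% and 2.99% of all tested genes. Pirb, a paired immunoglobulin-like receptor that recruits phosphatases, rose 3.20-fold (limma adjusted p = 0.00107), from 5.99, 7.05 and 5.61 RPM in young to 17.7, 16.9 and 35.4 RPM in aged libraries. Lilrb4a, of the same receptor class, rose 2.58-fold (limma adjusted p = 0.0179). Sirpa, the receptor for CD47 that restrains engulfment, fell 1.40-fold, with 436 RPM ± 59.3 in young and 309 RPM ± 2.84 in aged libraries (SD, n = 3, limma adjusted p = 0.0402). Ubash3b, a phosphatase that acts on SYK, fell 1.44-fold (limma adjusted p = 0.0367). With the neutrophil score the calls of Sirpa (limma adjusted p = 0.0506) and Ubash3b (0.084) were lost. The log2 difference of Lilrb4a went from 1.37 to 0.73 (limma adjusted p = 0.0404) and that of Pirb from 1.68 to 1.22 (limma adjusted p = 0.000741). None of the 13 tested genes of this group was called in the libraries labelled deltaMG, where 3.78% of all tested genes were. In that comparison 1 of the 13 had an unadjusted limma p under 0.05, beside 18.8% of all tested genes.

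Among the enzymes and scaffolds between the ITAM and its outputs, few genes were called. With age the phosphatase gene Ptprc, which encodes CD45 and activates Src family kinases, rose 1.43-fold (limma adjusted p = 0.0496). The scaffold Gab1 fell 1.46-fold, the protein kinase C gene Prkca fell 1.68-fold and the diacylglycerol-responsive Ras activator Rasgrp3 fell 1.40-fold (limma adjusted p = 0.0487, 0.0206 and 0.0417). These 4 calls were lost with the neutrophil score, at limma adjusted p of 0.247 for Ptprc, 0.17 for Gab1, 0.126 for Prkca and 0.223 for Rasgrp3. With age no gene was called among the 5 tested MAP kinases, the 4 genes of TREM2 shedding or the 3 of the Card9 arm. Of all tested genes 6.14% were called, so the absence of calls in groups this small is no result about them. An unadjusted limma p under 0.05 was met by 0, 0 and 1 of these genes, beside 21.5% of all tested genes.

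Of the 15 pathway calls with age, those of Apoe, Clec7a and Pirb held without each of the 10 libraries in turn, while 12 were lost at least once. The highest limma adjusted p was reached without young replicate 1 for Siglech (0.0692), Cd300ld (0.111), Ptprc (0.179), Gab1 (0.193), Prkca (0.113), Rasgrp3 (0.15) and Sirpa (0.173). It was reached without young replicate 2 for Ubash3b (0.13), without young replicate 3 for Clec4e (0.118) and Lilrb4a (0.0717), without aged replicate 1 for Lpl (0.154) and without aged replicate 3 for Fcer1g (0.165).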

How the data were processed

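Per the labels' protocols, total RNA of the isolated microglia was amplified with an Ovation kit and made into Ion Xpress Plus libraries. The authors' deposited values were read as RPM: a constant of 0.0001 is added in every cell, and beyond it low values of a library rise in equal steps of 1 read. Of values up to 500 reads, 94.2% to 94.6% were within 0.05 of a whole read. Whole reads were not recovered for the rest, so no count model was used, and read numbers given are approximate. The submitters' processing notes name GRCm38, mm10 and FastQC. The aligner, counter, annotation and strand setting: not given in the sources used here. No annotated exon of another gene overlapped those of the 6 genes in GENCODE M21 on either strand.

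The fit took genes that reached 10 RPM in 2 or more of the 10 libraries as log2(RPM + 1), with limma 3.58.1 in R 4.3.3, 4 groups sharing 1 spread with a mean-dependent prior. A Benjamini-Hochberg adjusted p under 0.05 over 4151 genes was a call. The fit was tested on simulated data. Whether replicates are separate animals is not in the labels. The p-values therefore cover only the spread seen among these libraries, and that spread may be technical. The members, gene lists and markers were chosen with earlier results of these data known, so their directions are not independent evidence. Named were the 6 genes, Rab7, up to 4 called genes per role by smallest p, and for each of the 6 the genes most like it. Trem1, Treml2 and other values of genes that were not called were chosen after they were seen. For the neutrophil score, log2 values of 12 tested neutrophil markers were averaged, and monocyte and border macrophage markers were not in it. Alternatives covered the filter, pseudocount, scaling, libraries in the fit, block, trend, weights, neutrophil score and each library. Figures were drawn with matplotlib 3.10.9. Results for 2 roles of the pathway list, among them 1 gene called higher in the libraries labelled deltaMG, are not reported here.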

Additional observations from a re-analysis of the deposited data

How the results depend on the processing

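The 3 calls among the 6 genes and the Tyrobp difference kept their direction in every setting tried, but none stayed a call in all of them. No filter on low values gave 131 genes called for age, 88 for the libraries labelled deltaMG and 115 for the difference between the comparisons (255, 157 and 199 as reported). It gave 0 of the 6 genes in each. Log2 differences were still -0.46 for Inpp5d, -0.68 for Trem2, -0.998 for Tyrobp and -1.24 for the Tyrobp difference. A minimum of 50 RPM in at least 3 libraries gave 116, 62 and 86 genes. Of the 6 genes it left only Tyrobp and Inpp5d in the fit, with Trem2, Syk, Plcg2 and Vav1 below it, and 1 was called in deltaMG. The Inpp5d call, and so the only one of the 6 with age (0 left), was lost with a minimum of 1 RPM, with only its own libraries, with the replicate block or without the trend (each -0.46), with median-of-ratios (-0.41), equal totals (-0.44) or quantile scaling (-0.42) and with the neutrophil score (-0.36). The Trem2 call was lost, leaving 1 of the 6, with a minimum of 1 RPM, with the replicate block or without the trend (each -0.68), with quantile scaling (-0.65) and with the neutrophil score (-0.62). Only the libraries of each comparison gave 121 and 510 genes, array weights 357 for deltaMG and 344 for the difference, and the neutrophil score 128 for age and 464 for the difference. Signs changed for Vav1 in deltaMG (0.012 with median-of-ratios, 0.032 with quantile scaling), and with the neutrophil score for Inpp5d in deltaMG (0.039) and Rab7 (-0.069 for age, -0.22 for deltaMG). The cause of these changes was not tested.

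The replicate block gave 66, 69 and 102 genes. Same-numbered young and aged libraries deviated in opposite directions (r = -0.14, -0.24 and -0.39), and the labels name no shared batch. Differently numbered libraries reached r = 0.37 (young replicate 2 with aged replicate 3). Such correlations cannot settle whether the numbers pair the samples, and pairing is not known. In the libraries labelled control and deltaMG r was 0.12. With 2 libraries a group both pairs give the same r by construction, so this is a single value.

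Leaving out each library gave 96 to 422, 25 to 317 and 71 to 264 genes, and 0 to 1, 0 to 2 and 0 to 1 of the 6. Log2 differences ran from -0.55 to -0.37 for Inpp5d with age, -0.75 to -0.62 for Trem2 and -1.34 to -0.65 for Tyrobp in deltaMG, and -1.59 to -0.90 for the Tyrobp difference. Vav1 in deltaMG (-0.11 to 0.10), the Syk difference (-0.12 to 0.26) and Rab7 with age (-0.017 to 0.36) included 0. Called pathway genes ranged from 3 to 12 higher and 0 to 8 lower with age, and from 0 to 5 higher and 1 to 2 lower in deltaMG. For a group left with a lone library, the fit borrows its spread from the other groups. With 2 or 3 libraries a group, differences in Syk, Plcg2 and Vav1 within their 95% intervals could not be seen.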
